A study of Mus musculus with 4 samples.

Results

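The cadherins and protocadherins are calcium-dependent adhesion molecules, and 70 of their genes, out of 22328 genes with a named probe, were followed on arrays of mouse neural stem cells. They were chosen by name: every gene symbol on the array that reads Cdh with a number, or that starts with Pcdh. These symbols had 98 probes, and 17 genes had several, of which the probe with the highest mean signal over the 4 arrays was used. The genes were set apart as 5 type I cadherins, 13 type II cadherins, 5 other Cdh genes, 4 delta-1 and 5 delta-2 protocadherins, 3 other protocadherins, and 7 Pcdha, 22 Pcdhb and 6 Pcdhg genes of the 3 gene clusters on chromosome 18.

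Classical cadherins bind the same cadherin on a neighbouring cell through repeats stiffened by calcium, and their tail holds p120-catenin and beta-catenin, which link it through alpha-catenin to actin. Type I and type II cadherins differ in how the outermost repeats interlock, and in the embryonic brain different members mark different regions and cell types. Delta protocadherins adhere weakly and act mainly in cell movement, sorting and axon growth; several delta-2 members bind the WAVE complex, which drives branching of actin. Clustered protocadherins give neurons a cell-surface identity: each cell uses a few variable exons or genes of the Pcdha, Pcdhb and Pcdhg clusters, chosen through promoters that CTCF and cohesin bring to distant enhancers.

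Each of the 4 groups had 1 single-colour array. NSC were neural stem cells of the brain of E14.5 embryos, and NSC-Ceacam1L were NSC carrying an expression vector labelled Ceacam1L, for a form of the adhesion molecule Ceacam1, which belongs to the immunoglobulin superfamily. NSCL61 is a glioma-initiating line, derived, as far as is known, from such cells by an activated HRas, and NSCL61-Ceacam1sh carried a vector named for a short hairpin RNA against Ceacam1. All 4 were labelled p53-/- and E14.5 brain, and all were grown in medium without serum. The labels describe transfection followed by 1 week in hygromycin. They do not say whether NSC and NSCL61 received an empty vector, nor whether a group was 1 clone or a pool. No probe on the array was named for Ceacam1, so neither vector's effect on its target was checked.

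With 1 array a group there is no replicate check and no p-value, and precision is limited by the number of arrays. All shared 1 slide, with each group in a position of its own, and slide position and group cannot be told apart. Signals are log2 values relative to each array's 75th percentile, and a level is compared only along 1 probe, never between genes. The scanner software's modelled error had a median of 0.15 on this log2 scale on every array, for probes well above background. It covers the spread within an array only, and a ± below is this error carried into a difference. Between 62.7% and 67.2% of named genes were well above background on an array. A gene entered a comparison if either array measured it well above background, and from 2-fold upwards it is called higher or lower (log2 difference 1.0). Where only the brighter array measured it, the size is given as "at least", against the dim value itself or the lowest signal measured on the dim array, whichever is higher. A log2 difference of such a gene uses the dim value itself, so it shows direction and not a measured size. A bound taken against the dim value itself carries the modelled error of the difference. With the hairpin this holds for Cdh4, Cdh5 and Cdh15 (± 0.42, ± 0.46 and ± 0.42). In RNA from whole cultures, fewer cells of a type and less RNA per cell cannot be told apart.

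Of neural stem cell and radial glia markers, 10 of 10 were well above background on NSC and NSC-Ceacam1L, 9 of 10 on NSCL61 (not Prom1) and 9 of 10 on NSCL61-Ceacam1sh (not Hes5). Their summed signal, in units of the 75th percentile, was 893, 718, 957 and 321 on NSC, NSC-Ceacam1L, NSCL61 and NSCL61-Ceacam1sh. Vim, which mesenchymal cells also express, made up 280 of the last sum; without it the sums were 745, 536, 522 and 41.0. On NSCL61-Ceacam1sh the radial glia genes Fabp7 (8.90, 8.39, 8.36 and -4.00 in log2 signal) and Slc1a3 (5.56, 5.50, 4.73 and -3.70) were near background, and Hes5 was not measured, while Nes, Sox2 and Sox9 stood at 4.95, 2.36 and 1.78. The NSCL61-Ceacam1sh array was thus far lower in Fabp7, Slc1a3 and Hes5 than the other 3, and with 1 array its identity could not be checked further. Not all of the list fell against NSCL61. Pax6 (-1.48 on NSCL61 and -1.35 on NSCL61-Ceacam1sh) and Msi1 (-0.35 on both) were level. Prom1, not above background on NSCL61 (-5.58), stood at -2.28 on NSCL61-Ceacam1sh. Markers of other cell types moved on the last array. The summed signal of 7 oligodendrocyte lineage markers was 198, 191, 122 and 2.48 in the same order, with Olig1, Olig2 and Cspg4 not above background on NSCL61-Ceacam1sh. Olig1 and Olig2 made up most of the NSCL61 sum. Not all of this list fell between the NSCL61 arrays. Pdgfra (1.61 on NSCL61 and 1.03 on NSCL61-Ceacam1sh) differed by less than 2-fold, and Mbp went from -5.46, not above background, to -4.23. The summed signal of 5 astrocyte markers was 50.9, 113, 285 and 2.49. That of 7 neuron markers was 25.8, 29.4, 62.3 and 9.42, and that of 8 fibroblast markers 2.35, 13.6, 1.04 and 24.1. Thy1 (1.0, 3.71, -3.21 and -6.73 in log2 signal) made up most of the fibroblast sums on NSC and NSC-Ceacam1L. It was not above background on NSCL61-Ceacam1sh, where the sum came from other genes of the list, Dcn (3.31) being the largest. The 3 mesothelial markers summed to 83.6 on NSCL61-Ceacam1sh and to at most 0.281 elsewhere, all of it Msln, since Wt1 and Upk3b were not above background on any array. Endothelial, epithelial and microglial lists stayed between 9.22 and 19.6, 0.345 and 0.791, and 12.8 and 28.4. These shifts accompany every cadherin difference between the NSCL61 arrays given below, and their part in them was not tested.

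Of the 70 genes, the NSC array measured 44 well above background, the NSC-Ceacam1L array 53, NSCL61 50 and NSCL61-Ceacam1sh 30. Altogether 56 were seen on at least 1 array and 29 on all 4. The 14 that were seen on none were Cdh3, Cdh7, Cdh16, Cdh18, Cdh23, Cdh24, Pcdh12, Pcdhac1, Pcdhb1, Pcdhb13, Pcdhga5, Pcdhga10, Pcdhgb1 and Pcdhgc5. The NSCL61-Ceacam1sh array thus measured the fewest members, and the loss lay mostly in the Pcdhb cluster, with 8 of 22 genes above background there against 17, 20 and 19 on NSC, NSC-Ceacam1L and NSCL61.

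**Figure D1:**
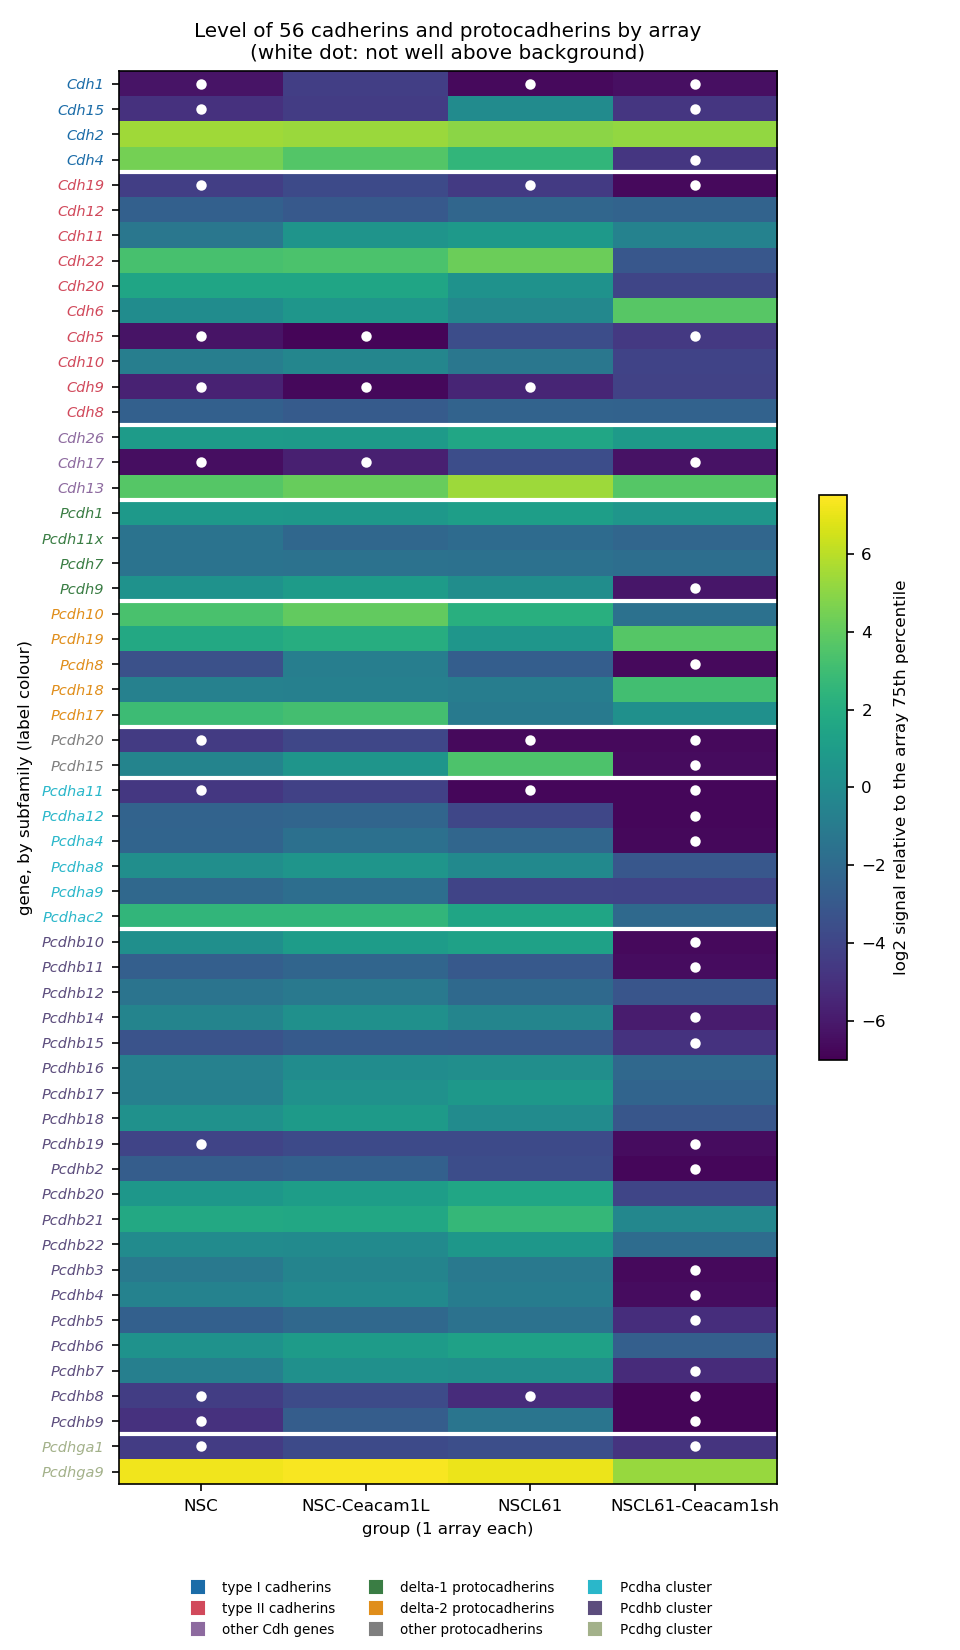
Level of the 56 genes seen on at least 1 array (rows, ordered and coloured by subfamily) on the 4 arrays (columns), as log2 signal relative to the array's 75th percentile; a white dot marks a probe not well above background. Cdh2 is bright on every array, and most Pcdhb rows darken on NSCL61-Ceacam1sh.

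Between NSCL61-Ceacam1sh and NSCL61, 38 of 51 evaluated members were lower with the hairpin, where 24.3% of all evaluated genes were lower, and 5 were higher, where 23.4% of all genes were. The median log2 difference of the members was -2.85, against 0.01 over all genes. Of the 38, 21 were not measured on the hairpin array, and with each such member entered at its bound the median was -2.07. Under median and spike-in scaling the balance of all genes moved, with 64.5% and 64.9% of called genes higher instead of 49.1% and all-gene medians of 0.43 and 0.44. Under both, 34 members were still lower and 5 higher.

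Between NSCL61 and NSC, 10 of 50 members were higher in NSCL61, against 14.4% of all genes, and 8 were lower, against 14.0%. The shares, 20% and 16%, lay near those of all genes, and the medians were 0.14 for the members and 0.03 for all genes. Spike-in scaling lowered the share of higher genes among all called genes from 50.7% to 39.6% and gave 8 higher and 9 lower members.

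Between NSC-Ceacam1L and NSC, 6 of 53 members were higher with the Ceacam1 vector, against 10.5% of all genes, and 0 were lower, against 6.05%. The median difference was 0.45 for the members and -0.10 for all genes, with 41 members above 0 and 12 below. Of all 15311 evaluated genes, 6502 lay above 0 and 8809 below. Some members entered only through NSC-Ceacam1L, which favours a positive sign. Where both arrays had to measure the gene, 32 of 44 members lay above 0 and 12 below, at a median of 0.35. The share of higher genes among all called genes rested on the scaling: 63.4% here, 76.7% with cyclic loess and 84.2% with spike-in scaling, with all-gene medians of 0.13 and 0.27. The 6 higher members became 15 when scaled on spike-ins and 2 after normexp. This comparison and NSCL61 minus NSC share the NSC array, and the hairpin comparison shares NSCL61 with the latter.

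**Figure D2:**
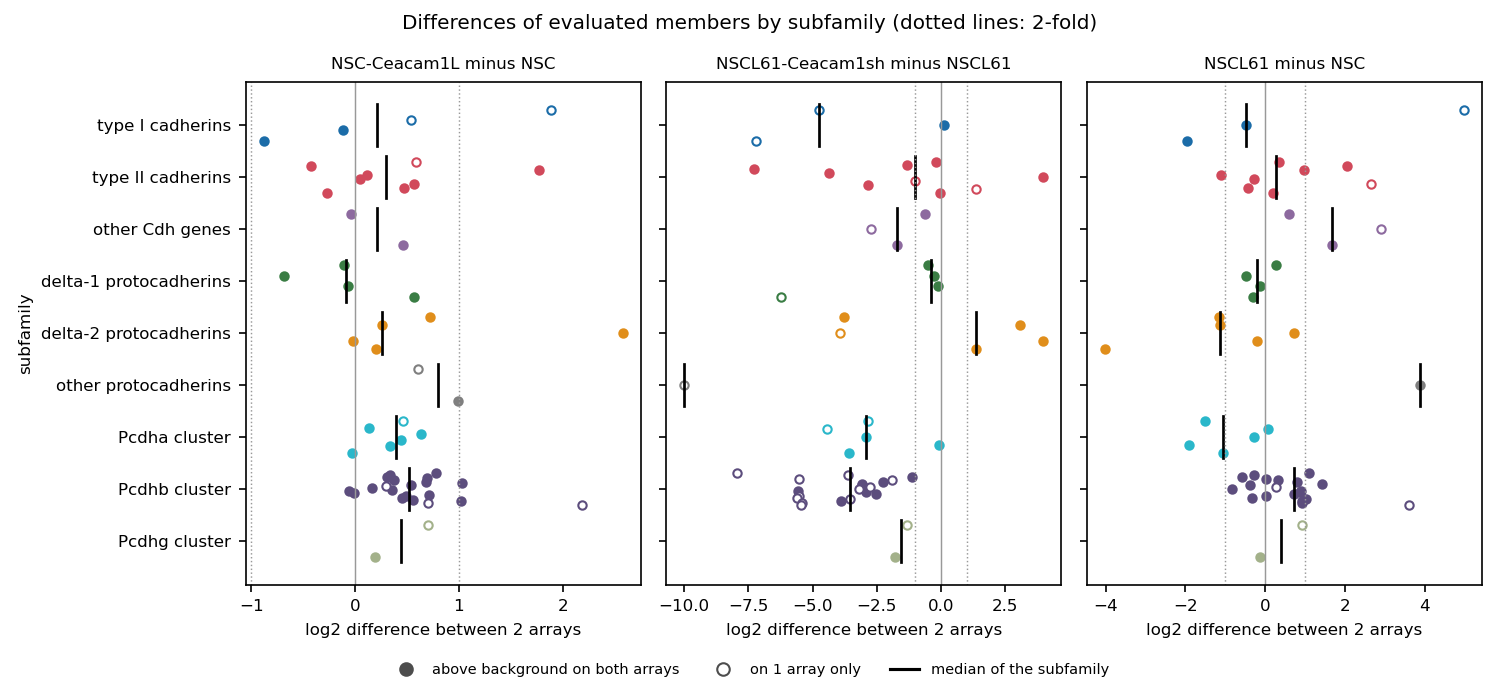
Log2 difference of each evaluated member (points) in the 3 comparisons (panels, each with its own scale), by subfamily; filled points were well above background on both arrays, open points on 1 only, black bars are medians and dotted lines mark 2-fold. In the middle panel all 19 Pcdhb points lie left of the 2-fold line, while 3 of 5 delta-2 points lie to the right.

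Among type I cadherins, Cdh2 (N-cadherin), which holds the adherens junctions of neural progenitors, differed by less than 2-fold in each comparison. Its level was 5.46 and 5.34 on the NSC and NSC-Ceacam1L arrays and 5.0 and 5.13 on NSCL61 and NSCL61-Ceacam1sh. The largest of its 3 differences was -0.47 ± 0.20, for NSCL61 minus NSC, short of 2-fold. Its second probe gave -0.19 with the Ceacam1 vector, 0.23 with the hairpin and -0.64 for NSCL61 against NSC.

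Cdh4 (R-cadherin), a relative of Cdh2 found in retina and forebrain, went another way. Its levels were 4.49, 3.61, 2.54 and -4.68 on NSC, NSC-Ceacam1L, NSCL61 and NSCL61-Ceacam1sh, the last not above background. Thus it was 3.88-fold lower in NSCL61 than in NSC (-1.96 ± 0.20) and at least 149-fold lower in NSCL61-Ceacam1sh than in NSCL61. NSC-Ceacam1L against NSC gave -0.88 ± 0.20. The other 2 probes of Cdh4 were not above background on NSCL61-Ceacam1sh either, and were at least 65.9-fold and 3.62-fold lower there than on NSCL61. For NSCL61 minus NSC, where both arrays measured them, they gave -2.11 and -1.74. One of them is shown because it reads the calcium site that defines the family. It lies at mm9 chr2:179581965-179582024 on the plus strand, and the capitals (bases 33 to 47) are the codons of the calcium-binding motif that links cadherin repeats, found by translating its open frame.

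Cdh4 probe: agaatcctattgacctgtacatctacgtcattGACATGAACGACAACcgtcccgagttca

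Cdh15 (M-cadherin), the cadherin of muscle precursors, was measured on NSCL61 at 0.02 and on NSC-Ceacam1L at -4.42, and was not above background on NSC (-4.96) and NSCL61-Ceacam1sh (-4.71). It was at least 19.6-fold higher in NSCL61 than in NSC, and at least 26.6-fold lower with the hairpin. Cdh1 (E-cadherin), the cadherin of epithelia, was above background only on NSC-Ceacam1L, at -4.31, near the dimmest signal that array measured (-4.85). Its difference there, 1.89 ± 1.36, passes 2-fold but has no bound, because a signal of that size might have been missed on NSC. Cdh3 (P-cadherin) was not above background anywhere.

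Type II cadherins, which sort neurons and progenitors into pools, split in the hairpin comparison into 5 lower and 2 higher of 9 evaluated. The shares were 55.6% and 22.2%, against 24.3% and 23.4% of all genes. The median difference was -1.01. Cdh22, a cadherin of pituitary and brain, had levels of 3.26, 3.38, 4.23 and -3.06 on NSC, NSC-Ceacam1L, NSCL61 and NSCL61-Ceacam1sh, all above background. That is 156-fold lower in NSCL61-Ceacam1sh than in NSCL61 (-7.28 ± 0.23). Cdh20 stood at 1.5, 1.55, 0.39 and -3.96, which gives -4.35 ± 0.31 for the hairpin and -1.11 ± 0.20 for NSCL61 against NSC. Cdh10 stood at -0.82, -0.35, -1.25 and -4.10, lower by 7.21-fold with the hairpin. For all of these the hairpin array was far below the other 3, which lay within 2-fold of each other for Cdh10 and Cdh22.

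Cdh6 (K-cadherin), which marks kidney precursors and parts of the early forebrain and neural crest, moved in the opposite direction. It stood at 0.04, 0.61, -0.23 and 3.75, and was 15.8-fold higher in NSCL61-Ceacam1sh than in NSCL61 (3.98 ± 0.20), while the 3 other arrays lay within 2-fold of each other. Its near relative Cdh9 was above background on NSCL61-Ceacam1sh only, at -4.15, and at least 1.41-fold higher there. The probes of Cdh6 and Cdh9 were the most alike of any 2 members, with 50 of 60 bases identical. They are shown because this likeness touches the Cdh9 value; whether Cdh6 RNA bound the Cdh9 probe was not tested. Capitals mark the 10 bases that differ. The probes lie at mm9 chr15:12963981-12964040 on the minus strand (Cdh6) and chr15:16785915-16785974 on the plus strand (Cdh9).

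Cdh6 probe: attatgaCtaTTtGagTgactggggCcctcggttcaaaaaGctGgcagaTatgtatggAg

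Cdh9 probe: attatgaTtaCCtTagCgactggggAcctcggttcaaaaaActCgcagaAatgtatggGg

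A single reading frame was open in both probes, and 9 of the 10 differences fell on the third base of a codon, 0 on the second and 1 on the first. The stretch codes for the end of the tail that binds beta-catenin, which classical cadherins share.

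Cdh11 (OB-cadherin), common in mesenchyme and also in glioma, was the type II member that moved in all 3 comparisons. It stood at -1.27 in NSC against 0.50 with the Ceacam1 vector, and at 0.77 in NSCL61 against -0.56 with the hairpin. So it was 3.42-fold higher with the Ceacam1 vector (1.77 ± 0.21), 4.12-fold higher in NSCL61 than in NSC (2.04 ± 0.21), and 2.52-fold lower with the hairpin (-1.33 ± 0.21). Its second probe gave 1.02, 1.04 and -1.36 for the same 3 differences. With median scaling the hairpin difference of the first probe came to -0.91 and with spike-in scaling to -0.90, short of 2-fold.

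Cdh5 (VE-cadherin), which closes endothelial junctions, was above background on NSCL61 only, at -3.58. It was at least 1.61-fold higher there than in NSC. With the hairpin the bound was 2.01-fold lower, a difference of -1.01 ± 0.46, so the modelled error reaches below 2-fold. Of the endothelial markers, Tek and Cldn5 were not above background on any array. Cdh8 (-2.58, -2.85, -2.38 and -2.42) and Cdh12 (-2.55, -2.97, -2.20 and -2.41) lay within 2-fold over the 4 arrays with the probes used. Another Cdh8 probe was measured on NSCL61 only, at -0.45, at least 14.1-fold higher than on NSC and at least 19.7-fold higher than on NSCL61-Ceacam1sh. Cdh19 was above background on NSC-Ceacam1L only (-3.73).

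Outside the classical groups, Cdh13 (T-cadherin) is held in the membrane by a lipid anchor and has no tail for catenins. It stood at 3.68, 4.14, 5.36 and 3.66 on NSC, NSC-Ceacam1L, NSCL61 and NSCL61-Ceacam1sh. It was 3.21-fold higher in NSCL61 than in NSC (1.68 ± 0.20) and 3.25-fold lower with the hairpin (-1.70 ± 0.20), where its level was near that of NSC. A second Cdh13 probe, above background on NSCL61-Ceacam1sh only, was at least 8.52-fold higher with the hairpin, the opposite direction, and the mean difference of both probes was 0.80. Cdh17, the cadherin of liver and intestine, was above background on NSCL61 only (-3.56), and its second probe on NSC only (-3.88), so its probes disagree on NSCL61 minus NSC. Cdh26 stood between 0.92 and 1.56 on all arrays, within 2-fold.

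**Figure D3:**
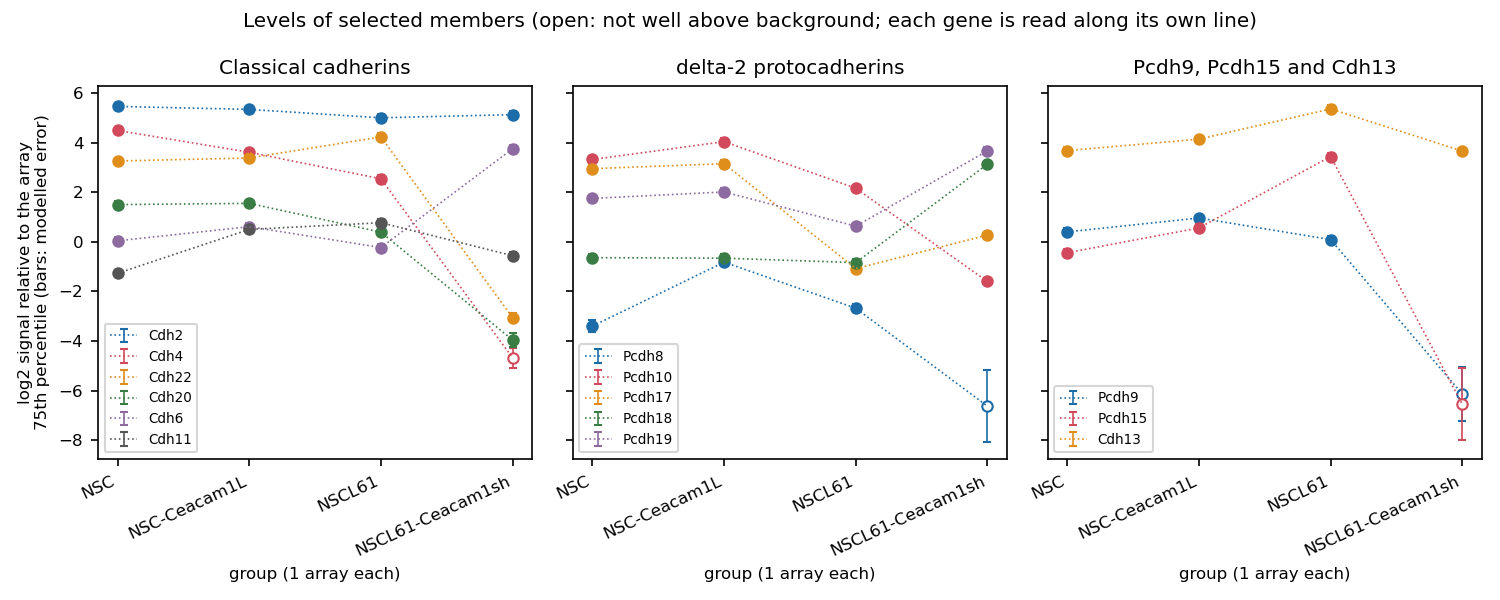
Levels of selected members on the 4 arrays (points; dotted lines join the points of a gene, error bars are the modelled error, open points were not well above background), as log2 signal relative to the array's 75th percentile. Cdh2 stays between 5.0 and 5.46, Cdh4 and Cdh22 are lowest on NSCL61-Ceacam1sh, and Cdh6, Pcdh18 and Pcdh19 are highest there.

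Delta-2 protocadherins all differed by 2-fold or more between the NSCL61 arrays, but not in 1 direction: 3 were higher and 2 lower with the hairpin, under every scaling and probe rule tried. Of all genes, 23.4% were higher and 24.3% lower. Pcdh18, whose tail binds the reelin adaptor Dab1, stood at -0.64, -0.66, -0.84 and 3.13 on NSC, NSC-Ceacam1L, NSCL61 and NSCL61-Ceacam1sh, flat over the first 3 arrays and 15.6-fold higher on the last (3.97 ± 0.21). Pcdh19, the X-linked gene of a female-limited epilepsy, stood at 1.75, 2.01, 0.63 and 3.67. It was 8.27-fold higher with the hairpin (3.05 ± 0.20) and 2.19-fold lower in NSCL61 than in NSC (-1.13 ± 0.20). Pcdh17, which acts in axon extension and at synapses, stood at 2.95, 3.15, -1.08 and 0.27. Its difference of -4.02 ± 0.21 between NSCL61 and NSC, 16.3-fold, was the largest decrease of any member in that comparison, and with the hairpin it was 2.54-fold higher, still below NSC.

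Pcdh10 (OL-protocadherin), which steers forebrain axons, ran against these. It stood at 3.32, 4.04, 2.16 and -1.60, so 2.24-fold lower in NSCL61 than in NSC and 13.6-fold lower again with the hairpin (-3.76 ± 0.21). Its second probe gave -1.58 and -3.91 for these differences. Pcdh8 (arcadlin), which takes N-cadherin from the surface of neurons, stood at -3.40, -0.82, -2.68 and -6.63, the last not above background. It was 5.99-fold higher with the Ceacam1 vector (2.58 ± 0.29), the largest difference of any member between the NSC arrays, and at least 4.19-fold lower with the hairpin. In NSCL61 against NSC, 3 of the 5 (Pcdh10, Pcdh17 and Pcdh19) were lower and 0 higher, where 14.0% of all genes were lower and 14.4% higher.

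Since the 5 delta-2 genes went in different directions, the stretches before their starts are printed side by side. Each is the 120 bases before the start of transcription in the RefSeq promoter table (build GRCm38.p6), on the gene's strand and ending at the base before the start: Pcdh8 at chr14:79771313-79771432 (minus), Pcdh10 at chr3:45378278-45378397 (plus), Pcdh17 at chr14:84443443-84443562 (plus), Pcdh18 at chr3:49757317-49757436 (minus) and Pcdh19 at chrX:133688994-133689113 (minus). Capitals mark the CCAAT box (CCAAT or ATTGG), the GC box (GGGCGG or CCGCCC) and the TATA box (TATAAA or TTTATA). These motifs do not overlap here.

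Pcdh8: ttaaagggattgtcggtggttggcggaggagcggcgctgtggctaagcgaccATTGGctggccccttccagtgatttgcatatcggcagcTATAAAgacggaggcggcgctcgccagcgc

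Pcdh10: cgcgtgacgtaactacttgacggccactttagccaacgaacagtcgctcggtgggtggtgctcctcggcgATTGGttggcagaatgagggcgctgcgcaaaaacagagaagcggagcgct

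Pcdh17: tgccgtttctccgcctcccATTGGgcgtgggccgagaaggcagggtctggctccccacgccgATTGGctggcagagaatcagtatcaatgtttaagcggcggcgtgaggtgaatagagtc

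Pcdh18: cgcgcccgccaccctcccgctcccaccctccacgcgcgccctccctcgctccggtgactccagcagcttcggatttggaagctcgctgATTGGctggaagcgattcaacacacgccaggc

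Pcdh19: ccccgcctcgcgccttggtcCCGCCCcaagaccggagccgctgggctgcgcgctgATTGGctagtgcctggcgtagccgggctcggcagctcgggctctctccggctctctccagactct

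Every window held ATTGG on the gene's strand, nearest to the start 68 bases before it in Pcdh8, 50 in Pcdh10, 58 in Pcdh17, 32 in Pcdh18 and 65 in Pcdh19, and Pcdh17 held another at 101. In the whole entry of 300 bases the box, in either orientation, was present in 5 of 5 delta-2 genes, in 15 of the 22 members with an entry and in 37.4% of all 32851 promoters. The GC box was present in 4 of 5, in 9 of 22 members and in 35.7% of all. A TATA box stood 30 bases before the start of Pcdh8 alone among the 5, with 13.6% of all promoters holding one. CpG pairs numbered 14, 24, 26, 23 and 18 in Pcdh8, Pcdh10, Pcdh17, Pcdh18 and Pcdh19, against a median of 7 over all promoters. The genes that were higher and those that were lower with the hairpin thus share the CCAAT box, and a match is a description of letters, not a bound site.

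Delta-1 protocadherins moved little, apart from Pcdh9, a gene of the developing brain. It stood at 0.40, 0.96, 0.09 and -6.14 on NSC, NSC-Ceacam1L, NSCL61 and NSCL61-Ceacam1sh, the last not above background, and was at least 28.7-fold lower with the hairpin. Its other 2 probes, likewise not above background with the hairpin, were at least 2.18-fold and 2.34-fold lower. Pcdh1 (0.85, 0.74, 1.14 and 0.62) lay within 2-fold over all arrays. The probes used for Pcdh7 (-1.48, -1.55, -1.60 and -1.74) and Pcdh11x (-1.46, -2.15, -1.94 and -2.23) were flat too, but other probes of these genes were not: 2 further Pcdh7 probes differed by 4.97 and 1.33 with the hairpin, and 2 further Pcdh11x probes were measured on the NSC arrays only and were at least 2.90-fold and 2.53-fold lower in NSCL61 than in NSC.

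Pcdh15, known for the tip links of hair cells and also as a gene of oligodendrocyte precursors, had the largest difference of any member. It stood at -0.44 in NSC and 0.56 with the Ceacam1 vector, and at 3.44 in NSCL61 and -6.55 with the hairpin, the last not above background. It was 14.7-fold higher in NSCL61 than in NSC (3.87 ± 0.21) and at least 292-fold lower with the hairpin. The summed oligodendrocyte lineage markers were 198, 191, 122 and 2.48 on NSC, NSC-Ceacam1L, NSCL61 and NSCL61-Ceacam1sh, so they ran with Pcdh15 between the NSCL61 arrays but not between NSCL61 and NSC. The sums of astrocyte markers (50.9, 113, 285 and 2.49) and neuron markers (25.8, 29.4, 62.3 and 9.42) ran in the direction of Pcdh15 in each comparison. Gfap and Tubb3 made up most of these sums on NSCL61, and not every gene followed. In NSCL61 against NSC, Aldh1l1 (-1.84), Rbfox3 (-3.13) and Map2 (-0.75) went down. Gfap (10.98), Aqp4, S100b and Gja1, and Tubb3 (4.23), Dcx, Syt1 and Snap25, went up. With the Ceacam1 vector Map2 alone of these lists went down (-0.37). Whether the marker sums and Pcdh15 are related was not tested. Between the NSC arrays Pcdh15 differed by 0.99 ± 0.21. Among its other 6 probes, 2 were measured on NSC and NSCL61 and gave 4.34 and 3.12 for NSCL61 minus NSC. With the hairpin these 2 were at least 71.2-fold and 20.6-fold lower. Of the rest, 3 were measured on NSCL61 only and 1 on no array. Pcdh20 was above background on NSC-Ceacam1L only (-3.89).

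The clustered protocadherins gave the most even pattern. With the hairpin 25 of 26 evaluated genes were lower, none was higher and the median difference was -3.15, against 13 lower and 5 higher of 25 members outside the clusters. Of all genes, 24.3% were lower and 23.4% higher. Lower clustered genes numbered 20 to 25 of 26 under the scaling and background settings tried, and 11 of 12 where both arrays had to measure the gene. The genes of a cluster are near copies, and a probe may bind RNA of its neighbours, so they are not independent of each other. The probes used were compared only with each other, and no pair of cluster probes shared more bases than those of Cdh16 and Cdh5 (29 of 60). A probe can match a neighbour's RNA at a stretch where that neighbour has no probe, so this count does not bear on such binding. The probes named Pcdha4, Pcdha8, Pcdhac2 and Pcdhga9 each listed several genes. Binding of a cluster probe to RNA of a neighbour was not tested.

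In the Pcdhb cluster, whose genes each have a promoter of their own and a single exon, 19 of 19 evaluated genes were lower with the hairpin. The median difference was -3.55, or -3.09 with bounds. All 19 stayed below 0 under every scaling and background setting tried, where 16 to 19 passed 2-fold. NSCL61-Ceacam1sh measured 8 of the 19, with differences from -1.15 (Pcdhb12) to -5.57 (Pcdhb20). Pcdhb20 stood at 0.70, 1.06, 1.60 and -3.97 on NSC, NSC-Ceacam1L, NSCL61 and NSCL61-Ceacam1sh, 47.5-fold lower (-5.57 ± 0.31). For the 11 that it did not measure, the bound was largest for Pcdhb10 (0.21, 0.99, 1.31 and -6.62), at least 66.6-fold lower. Pcdhb7 was at least 30.4-fold lower, Pcdhb14 at least 20.4-fold, Pcdhb4 at least 14.4-fold and Pcdhb3 at least 12.4-fold. Only Pcdhb19, with a bound of 1.98-fold, could not be placed beyond 2-fold.

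Between NSCL61 and NSC, 4 of 19 Pcdhb genes were higher (Pcdhb9, Pcdhb17, Pcdhb10 and Pcdhb5) and none was lower, at a median of 0.71. The higher share was 21.1%, against 14.4% of all genes, of which 14.0% were lower. Pcdhb9, at -4.94, -2.75, -1.34 and -6.80 and not above background on NSC or NSCL61-Ceacam1sh, was at least 7.61-fold higher in NSCL61. It was also at least 2.86-fold higher with the Ceacam1 vector than in NSC. Pcdhb17 (-0.67, 0.36, 0.75 and -2.34) was higher by 1.43 ± 0.21 in NSCL61 and by 1.03 ± 0.21 with the Ceacam1 vector, and Pcdhb7 (-0.74, 0.28, 0.18 and -5.22) by 1.02 ± 0.21 with the vector. These 3 were the Pcdhb genes called between the NSC arrays, 15% of the 20 evaluated, against 10.5% higher among all genes. There 18 of 20 lay above 0 at a median of 0.52, and 17 to 20 of 20 under the other scaling and background settings. Pcdhb8, Pcdhb9 and Pcdhb19 entered only through NSC-Ceacam1L, which favours a positive sign. Where both arrays had to measure the gene, 15 of 17 lay above 0. Of all 15311 evaluated genes, 6502 did. With normexp background correction none of the 20 passed 2-fold between the NSC arrays, and with spike-in scaling 8 did.

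**Figure D4:**
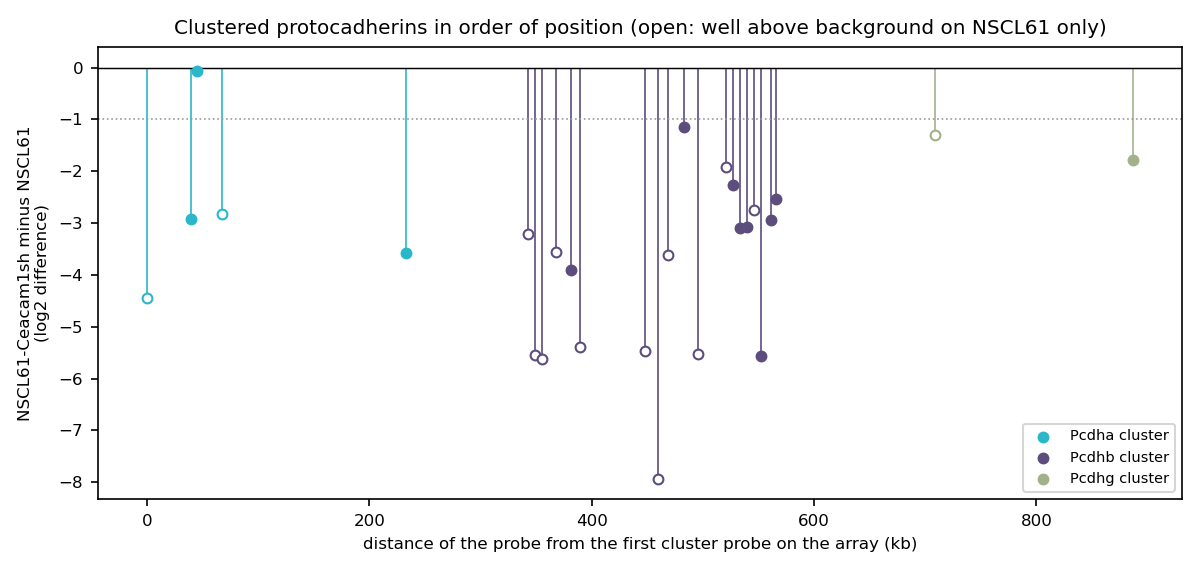
Log2 difference NSCL61-Ceacam1sh minus NSCL61 of the 26 evaluated clustered genes (points on stems), against the distance of the probe from the first cluster probe in kb; open points were well above background on NSCL61 only, and the dotted line marks 2-fold. Every gene but Pcdha9 lies below the line, over a stretch of 887 kb.

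Pcdha and Pcdhg transcripts join 1 variable exon to constant exons that all genes of the cluster share, so a probe in the constant exons reads the cluster as a whole. The probe named Pcdhac2 listed 4 Pcdha genes and is such a probe. It stood at 2.56, 2.53, 1.51 and -2.06, 11.9-fold lower with the hairpin (-3.57 ± 0.21) and 2.07-fold lower in NSCL61 than in NSC. The probe named Pcdhga9 listed 4 Pcdhg genes and stood at 7.18, 7.37, 7.06 and 5.29, 3.42-fold lower with the hairpin (-1.78 ± 0.20), and a second probe gave -1.90. Thus the constant part of Pcdhg remained well above background on NSCL61-Ceacam1sh.

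Of variable Pcdha exons, Pcdha12 (-2.40, -2.28, -3.91 and -6.74) and Pcdha9 (-2.11, -1.77, -4.03 and -4.09) were lower in NSCL61 than in NSC, by 2.84-fold and 3.77-fold. Pcdha9 differed by -0.07 ± 0.39 with the hairpin, whereas Pcdha12 was at least 1.79-fold lower. Pcdha8 (0.15, 0.58, -0.14 and -3.08), whose probe listed 4 genes, was 7.64-fold lower with the hairpin, and Pcdha4 (-2.31, -1.67, -2.24 and -6.69), whose probe listed 2, at least 5.70-fold. Of variable Pcdhg exons only Pcdhga1 was measured, at -3.73 on NSC-Ceacam1L and -3.49 on NSCL61, and it was at least 2.39-fold lower with the hairpin.

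None of the measured genes around the clusters was lower by 2-fold with the hairpin. Taf7, which lies between the Pcdhb and Pcdhg genes, differed by 0.08 between the NSCL61 arrays. Of the 5 genes before the clusters, Wdr55 and Hars were higher with the hairpin (1.73 and 1.15) and Dnd1, Hars2 and Zmat2 differed by 0.56, -0.28 and 0.02. Behind them, Diaph1, Hdac3, Rell2 and Fchsd1 differed by 0.03, 0.69, -0.10 and -0.50, and Arap3 and Slc25a2 were not above background. Gene order was taken from the RefSeq table.

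Factors that act on the clusters mostly differed by less than 2-fold between the NSCL61 arrays: of 14, 1 was higher and 1 lower. That is 7.14% each, against 23.4% and 24.3% of all genes. Dnmt3a, a DNA methyltransferase, stood at 2.84, 2.53, 2.68 and -0.49 on NSC, NSC-Ceacam1L, NSCL61 and NSCL61-Ceacam1sh, a difference of -3.17. Wapl, which releases cohesin from DNA, was higher by 1.64. Ctcf and the cohesin subunit Rad21 differed by 0.27 and -0.01. Smchd1, at 1.00 after rounding, fell just short of 2-fold, and Rest, Smc1a, Stag1 and Setdb1 differed by 0.90, 0.82, 0.72 and 0.71. Of the 14, 10 lay above 0 and 4 below, at a median of 0.31. Median and spike-in scaling moved the all-gene median from 0.01 to 0.43 and 0.44, and this list was not counted under them. In each of the other comparisons 0 of 14 passed 2-fold.

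Of 18 evaluated catenins and other partners of the cadherin tail, 5 were higher with the hairpin (27.8%) and 4 lower (22.2%), near the shares of all genes, 23.4% and 24.3%. Among the catenins, Ctnnb1 (beta-catenin) differed by -0.18, Ctnnd1 (p120-catenin) by 0.27 and Ctnna1 (alpha-E-catenin) by 0.87, all under 2-fold. Ctnnd2 (delta-catenin) stood at 4.75, 4.83, 4.15 and -2.35, a difference of -6.50, and Ctnna2 (alpha-N-catenin) at -0.46, 2.04, 0.85 and -5.70, at least 48.4-fold lower. Arvcf (-2.78) and the junction scaffold Tjp1 (-1.37) were lower. Of the 4 plakophilins, which anchor desmosomes or junctions, Pkp2 was higher by 3.09, Pkp4 by 1.90 and Pkp1, at 1.09 on NSCL61-Ceacam1sh and not above background elsewhere, at least 51.5-fold, while Pkp3 differed by 0.15. The actin linkers Vcl and Iqgap1 were higher by 1.89 and 1.03. With the Ceacam1 vector 3 of 18 were higher and 0 lower, Ctnna2 by 2.50 and Arvcf by 1.90, and in NSCL61 against NSC 5 of 17 were higher and 0 lower. For this list and those below, 10.5% of all genes were higher and 6.05% lower with the Ceacam1 vector. In NSCL61 against NSC these shares of all genes were 14.4% and 14.0%.

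Of 8 repressors of Cdh1, 4 were higher with the hairpin (50%, against 23.4% of all genes) and 0 lower (against 24.3%). Snai2 stood at 2.82 on NSCL61-Ceacam1sh and was not above background on NSCL61, at least 177-fold higher, and Snai1 was at least 49.9-fold higher. Twist2 and Twist1 were higher by 4.03 and 1.92. Both were also above background on NSCL61 but not on NSC, at least 29.5-fold and 12.5-fold higher there, and in that comparison 2 of 7 were higher and 1, Snai2, lower. Snai2 was dim on NSC (-3.88), and its bound there, at least 1.70-fold lower in NSCL61, does not place it beyond 2-fold. Zeb1 and Zeb2 differed by -0.52 and -0.98 with the hairpin. Between the NSC arrays, 1 of 6 was higher (Snai1, without a bound) and 1 lower (Snai2, by at least 1.96-fold).

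Among other superfamily genes, 7 of 14 evaluated were lower with the hairpin (50%, against 24.3% of all genes). Fat4 alone was higher (1.74), 7.14% against 23.4%. The lower ones included the planar polarity cadherins Celsr3 (-4.80) and Celsr1 (-3.32) and the Fat4 ligand Dchs1 (-3.61). In NSCL61 against NSC 3 of 15 were higher and 6 lower, and with the Ceacam1 vector 1 of 14 was higher and 1 lower. The WAVE complex and FAK kinase list had 1 of 11 higher (Wasf2, 1.28) and 3 lower (Wasf3 -2.16, Wasf1 -1.76 and Cyfip2 -1.51) with the hairpin. The lower share, 27.3%, lay near the 24.3% of all genes, and the higher share was 9.09% against 23.4%. In NSCL61 against NSC 1 of 12 was higher and 2 lower, and with the Ceacam1 vector Cyfip2 alone of 12 was higher (1.92).

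Proteases that cut cadherins or their precursors had 1 of 9 higher and 4 lower with the hairpin. The shares were 11.1% and 44.4%, against 23.4% and 24.3% of all genes. Furin, which matures cadherins, was higher by 1.53, and the related convertase Pcsk6 was at least 55.5-fold lower. The gamma-secretase subunits Psen2, Aph1a and Psenen were lower by -1.24, -1.07 and -1.04, and Adam10, which sheds N-cadherin, differed by -0.77. In NSCL61 against NSC 3 of 9 were higher (Psen2 1.61, Pcsk6 1.19 and Furin 1.18), and with the Ceacam1 vector 2 of 9 (Psen2 1.29 and Ncstn 1.14), with 0 lower in both. Of 3 measured nectins, the immunoglobulin adhesion molecules that build junctions beside cadherins, Nectin3 (-2.40) and Nectin2 (-1.28) were lower with the hairpin and 0 higher. The lower share was 66.7%, against 24.3% of all genes. Nectin2 was the only nectin higher in NSCL61 than in NSC (1.75), and none differed by 2-fold between the NSC arrays.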

How the data were processed

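Total RNA (0.5 µg) was labelled with Cy3 and read on 1 single-colour Agilent mouse array per group (design 028005, mm9 coordinates). Per the file headers, the authors' intensity values (processed signal with its modelled error) came from Agilent Feature Extraction 10.7.3.1, whereas the submitters' processing notes name version 9.1. The deposited table of log2 values was an alternative only: its differences between arrays followed those of the scanner signals with slopes of 0.9997 to 1.0000, and its centring is unknown. Outlier spots were dropped (143 to 187 of 59305 an array), none was saturated, signals were divided by the 75th percentile (439 to 571) and spots of a probe averaged on the log2 scale. Probes were named through RefSeq (22328 genes), and 58 names differing in the NSC file were taken from the other files. A probe was above background if at least 50% of its spots were flagged so; the code was tested on simulated data. Named are members called in any comparison (up to 5 per cluster and comparison), Cdh1, Cdh2, Cdh4, Cdh5 and Cdh11, and up to 4 partners per list. The Pcdh and Cdh genes and all lists were chosen with earlier results of these data known. Further names (members at the same level, other probes, neighbours) complete the account. R 4.3.3, limma 3.58.1 and pandas 2.3.3 were used. Alternatives were 4 other scalings, normexp (offset 50), the deposited table, filters, folds and probe rules.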

Additional observations from a re-analysis of the deposited data

Results flagged for a closer look

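Several probes that were not used for their gene's value showed a difference of 2-fold or more, well above background on the brighter array, where the probe used did not or went the other way; the cause was not tested. Where the dimmer array did not measure the probe, which holds for all but the Pcdh7, Cdh4 and Pcdh15 probes, the value shows direction and not a measured size. With the hairpin, a second Cdh13 probe gave 3.30 (probe used -1.70), a second Cdh8 probe, above background on NSCL61 only, -6.34 (-0.05), and 2 Pcdh7 probes 4.97 and 1.33 (-0.14). In NSCL61 against NSC, that Cdh8 probe gave 5.99 (0.20), 2 Pcdh11x probes -3.24 and -3.14 (-0.47), a Pcdh7 probe -1.47 (-0.12) and a second Cdh17 probe -2.74 (2.91). Between the NSC arrays, the second Cdh17 probe gave -2.93 (0.75), a second Cdh4 probe -1.02 (-0.88) and a second Pcdh15 probe 1.29 (0.99).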

How the results depend on the processing

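Between the NSC arrays the 6 higher members became 15 with spike-in scaling, 2 with normexp, 17 at 1.5-fold and 2 at 4-fold, and the 0 lower became 2 with no filter on dim probes, 1 with the mean of all probes and 2 at 1.5-fold. With the hairpin the 5 higher became 3 at 4-fold, and the 38 lower became 17 of 29 where both arrays had to measure the gene. In NSCL61 against NSC the 10 higher became 6 with normexp, 6 with both arrays measured, 20 at 1.5-fold and 6 at 4-fold, and the 8 lower became 5 with normexp and 1 at 4-fold. All other counts stayed within 1.5 times, including that with members seen on 1 array counted by their bound, an alternative chosen after seeing the data (36 lower with the hairpin). Of the named called members' values under the alternatives, all 46 and all 140 kept their sign in the Ceacam1L and NSCL61 minus NSC comparisons, and 216 of 217 with the hairpin, the exception being Cdh13 (0.80 with the mean of its probes). The type I median with the hairpin turned to 0.13 where only Cdh2 was measured on both arrays, and that of other protocadherins in NSCL61 minus NSC to -0.33 with no filter. The cause was not tested beyond these changes of genes. No paired analysis was possible because each group had 1 array. Signal over background limits the sizes on NSCL61-Ceacam1sh, where 30 of 70 members were measured.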
